A study of Homo sapiens with 6 samples.

Results

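Antiviral effector genes induced by interferon were followed across MOC2 cells, a cultured mouse oral squamous cell carcinoma line, with and without targeting of HuR. The group holds 32 genes, listed by symbol for their role as interferon-stimulated antiviral effectors. All 32 were found among the 21872 gene symbols of the count table, of which 16325 had a count in any library. The control group (3 libraries) received lentiviral particles with control CRISPR/Cas9, and the knockout group (3 libraries) received particles with CRISPR/Cas9 against HuR, the RNA-binding protein encoded by Elavl1. Per the labels' protocols both were transduced at an MOI of 25 for 18 hours and grown for 72 hours more, and a single clone was isolated for the loss of HuR. If the knockout libraries came from that clone, its own traits cannot be told apart from an effect of HuR targeting. Genotype labels call the second group knockout, whereas the titles call it knockdown. Every library, controls included, therefore came from cells exposed to lentivirus and Cas9, and no untreated cells were analysed here. No label says that the 3 libraries of a group came from separate clones or cultures, so the p-values measure only the spread between these libraries, which may be technical.

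Type I interferons bind the receptor encoded by Ifnar1 and Ifnar2. The kinases JAK1 and TYK2, bound to the receptor, then activate transcription factors, IRF9 among them, that switch on interferon-stimulated genes. Many of these genes encode proteins that block a step of viral growth: IFIT proteins bind viral RNA, OAS enzymes and the kinase PKR respond to double-stranded RNA, IFITM proteins and tetherin act at membranes, and ISG15 is a ubiquitin-like modifier. Such genes are also expressed in many tumour cells without any infection.

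Elavl1 mRNA, from the targeted gene, was at 107 to 120 CPM in control libraries and 105 to 116 CPM in knockout libraries; the groups overlapped and the gene did not pass the test (log2 fold change -0.04, adjusted p = 0.820 by edgeR). The mRNA therefore does not separate the groups as labelled, although an edit in a coding sequence can leave the mRNA level as it was, and HuR protein was not analysed here. Groups below are named by their labels, so knockout library means the library labelled knockout. Library totals lay between 16158516 and 21294330 counts. Knockout library 3 correlated with the other knockout libraries at 0.927 and 0.932 (Pearson's r of log2 CPM across genes, which are not independent replicates), against 0.981 between those 2 and at least 0.990 between control libraries, and it is shown apart throughout. CPM are counts scaled to a library's TMM-adjusted total, the usual CPM unit. The summed level of 8 epithelial markers was 10892 to 13364 CPM in control and 5788 to 8482 CPM in knockout, and 5 of them fell; the basal keratin gene Krt5 stayed at or under 2.29 CPM. The 5 pan-leukocyte markers summed to 0.638 to 1.59 CPM in control and 0.796 to 1.76 CPM in knockout, and the defining macrophage genes Adgre1 and Itgam and the plasmacytoid dendritic cell gene Siglech had no count in any library. The 6 macrophage-list genes summed to 18.8 to 30.6 CPM in control and 2.01 to 37.1 CPM in knockout, highest in knockout library 3. In that list Mrc1 fell 90.2-fold, from 16.4 to 26.7 CPM in control to at most 0.490 CPM in knockout (adjusted p = 0.00128 by edgeR), and Cd68, which other cells also express, was at 36.8 CPM in knockout library 3 and at most 5.80 CPM in the other libraries. The 4 plasmacytoid dendritic cell genes, taken without the member Bst2, summed to 27.8 to 33.6 CPM in control and 66.4 to 131 CPM in knockout. Their sum was again highest in knockout library 3. Nearly all of the knockout sum came from Tcf4, at 66.0, 76.4 and 130 CPM in knockout libraries 1, 2 and 3. Tcf4 rose 3.93-fold and Flt3 fell 9.61-fold (adjusted p = 0.0031 and 0.00122 by edgeR), and Ccr9 stayed under 1 CPM in every library. Of the 8 fibroblast markers 3 rose, namely Col1a1, Col3a1 and Pdgfrb. Col1a2, Dcn, Lum and Postn stayed under 1 CPM in every library, and Pdgfra did not pass (adjusted p = 0.595 by edgeR). The list summed to 3.73 to 8.42 CPM in control and 408 to 430 CPM in knockout, with 408 CPM in knockout library 3. Nearly all of the knockout sum came from the 3 genes that rose. The part of the macrophage, plasmacytoid dendritic cell and fibroblast lists in the values below was not tested. Fewer cells with a transcript and less of it per cell cannot be told apart in these bulk libraries.

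Most of the antiviral genes were higher in the libraries labelled knockout, and most of the rise stood in knockout library 3. Summed over the 32 genes, the level was 260, 196 and 184 CPM in control libraries 1, 2 and 3 and 712, 988 and 2912 CPM in knockout libraries 1, 2 and 3. Without the 3 IFITM genes the sums were 215, 166 and 156 CPM in control and 376, 308 and 1917 CPM in knockout. On both sums every knockout library lay above every control library, and knockout libraries 1 and 2 came nearer to control once the IFITM genes were set aside.

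Of the 32 genes, 29 had enough counts for the test of knockout against control (edgeR's quasi-likelihood test, Benjamini-Hochberg adjustment over all 12293 genes tested, threshold 0.05). Of these, 20 were higher, none was lower and 9 did not pass, while 20.3% of all genes tested were higher and 15.4% lower. No member was lower at an unadjusted p under 0.05 by edgeR either, whereas 23 were higher. Of all 12293 genes tested, 5703 had an unadjusted p under 0.05 in either direction. DESeq2 and limma-voom also called 0 members lower, where they called 2451 and 2000 of all genes lower. The median log2 fold change of the 29 was 4.29, against 0.03 over all genes tested. A gene near 0 in control passes the filter on low counts only if its knockout counts are high, so the 29 lean towards genes that are higher in knockout. In 22 of the 32 genes every knockout library lay above every control library, a pattern seen in 29.7% of all genes tested. The reverse held for none of them (27.9% of all genes tested), and in 10 the groups overlapped.

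**Figure D1:**
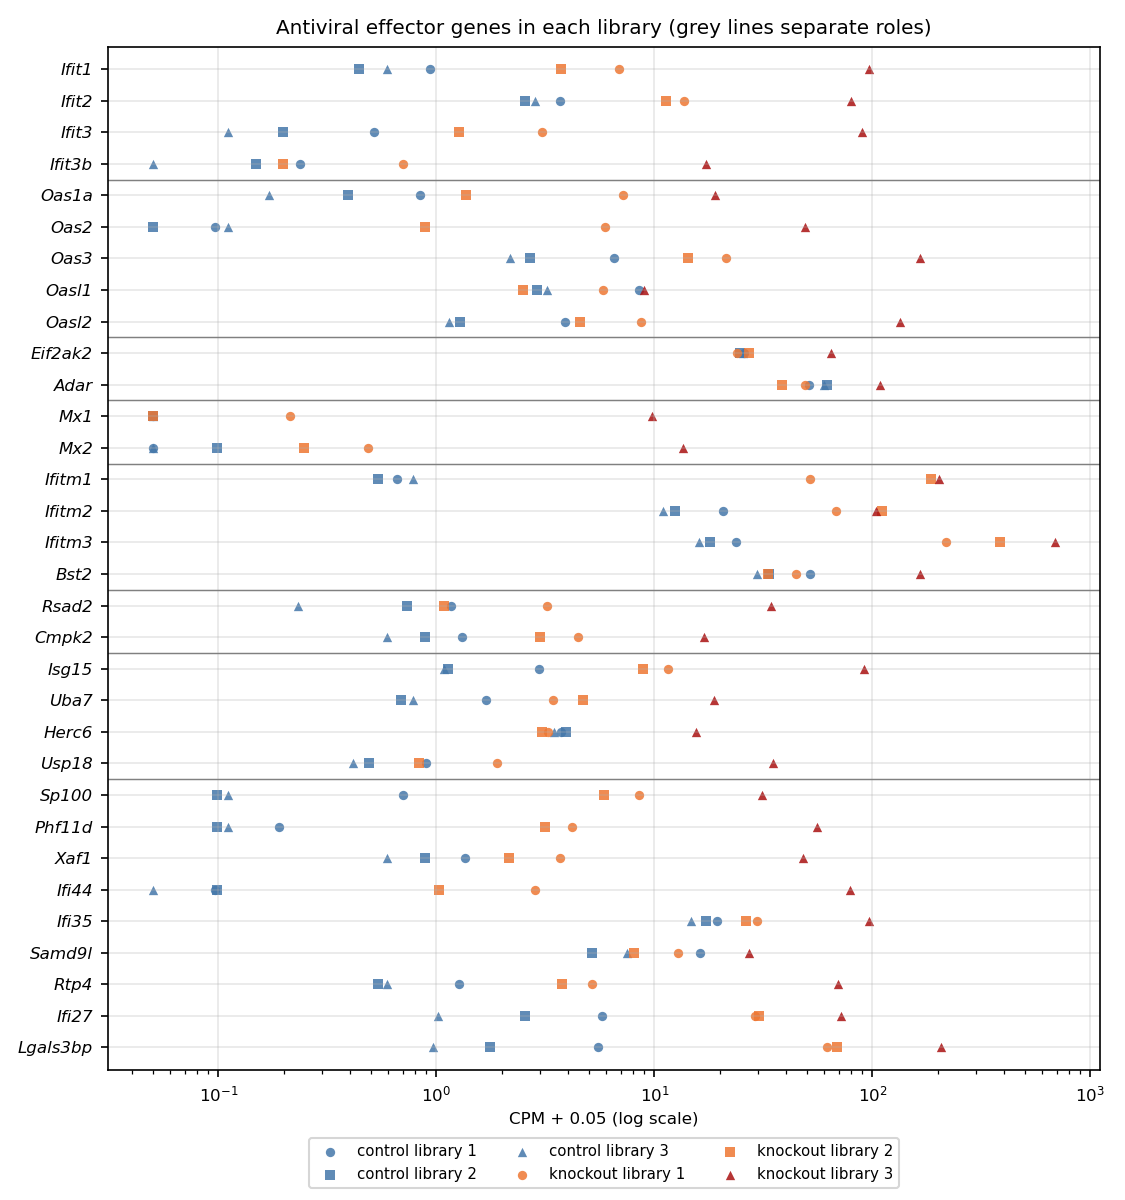
Level of each of the 32 genes in each library, as CPM + 0.05 on a logarithmic axis, ordered by role (blue, control; orange, knockout libraries 1 and 2; red, knockout library 3). Knockout library 3 was the highest of the 6 libraries for 31 genes, and Ifitm2 was the exception.

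These numbers of calls depended on the control libraries. Without control library 1, 2 or 3, 7, 6 and 6 members were higher, where 12.1%, 9.29% and 9.78% of all genes tested were. Without knockout library 1 or 2, 23 and 24 members were higher, where 20.2% and 16.8% of all genes tested were. The genes that passed whichever of the 6 libraries was left out were Ifitm1, Ifitm2, Ifitm3, Sp100, Ifi27 and Lgals3bp. With knockout library 3 left out, 20 members were higher and 1 (Adar) was lower, against 25.5% and 22.8% of all genes tested; 19 of the 20 were also among the calls made with all libraries. The median log2 fold change then fell from 4.29 to 2.23, against 0.02 over all genes tested. DESeq2 called 14 of the 29 members tested higher. It gave an adjusted p to 20 of the 29, but to 12261 of all 12293 genes tested, of which 23.1% were higher. The 9 members without one were Ifi44, Ifit1, Ifit3, Isg15, Oasl2, Phf11d, Rtp4, Usp18 and Xaf1. In these, knockout library 3 held from 7.96 (Isg15) to 29.8 (Ifit3) times the higher of the other knockout libraries. With limma-voom 6 of 29 members were higher, a share near the 18.6% of all genes tested.

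Knockout library 3 was the highest of all libraries for 31 of 32 members, as it was for 33.7% of all genes tested. It held over 5 times the higher of the other knockout libraries for 16 members and over 10 times for 12. Over all genes tested, 1.06% exceeded 5 times, so at most that share exceeded 10 times. The median of this ratio was 5.31 over the members and 0.923 over all genes tested. The members were nevertheless raised in the other knockout libraries too: in 22 of 32, knockout libraries 1 and 2 both lay above every control library, against 36.5% of all genes tested. Between those libraries, library 1 was the higher for 25 members. The share over all genes was not computed for this order, so the count is not read as a trait of the members. Among controls, library 1 was the highest for 25 of 32 members, against 37.7% of all genes tested.

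The IFIT genes encode proteins with tetratricopeptide repeats that bind foreign RNA and hinder its translation. Ifit1 was at 0.889, 0.393 and 0.547 CPM in control libraries 1, 2 and 3 and at 6.86, 3.67 and 96.6 CPM in knockout libraries 1, 2 and 3. The groups did not overlap, and knockout library 3 held 14.1 times the next highest library. Ifit1 rose 57.5-fold (log2 fold change 5.84, SE 1.47, adjusted p = 0.0234 by edgeR). Ifit2, which binds AU-rich RNA, was at 3.65, 2.50 and 2.79 CPM in control, against 13.7, 11.3 and 79.4 CPM in knockout. It rose 11.6-fold (log2 fold change 3.54, SE 0.834, adjusted p = 0.0186 by edgeR). Ifit3, a partner that stabilises IFIT1 in human cells, was at 0.468, 0.147 and 0.0607 CPM in control, against 3.00, 1.22 and 89.2 CPM in knockout. It rose 128-fold (SE 2.00 on the log2 scale, adjusted p = 0.0354 by edgeR). All 3 were thus above control in each knockout library. Ifit3b, a close copy of Ifit3, had too few counts to test: 4, 2 and 0 counts in control, against 12, 3 and 282 in knockout. Reads of Ifit3 and Ifit3b may be split between the copies in ways that the table does not show. Without knockout library 3 the rises were 8.50-fold for Ifit1, 4.18-fold for Ifit2 and 8.71-fold for Ifit3, all still passing (adjusted p = 0.000936, 0.00028 and 0.00775 by edgeR), and without control library 1 Ifit3 was 270-fold higher. Leaving out any 1 control library ended all 3 calls (adjusted p from 0.0641 to 0.125 by edgeR).

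OAS enzymes sense double-stranded RNA and make oligoadenylates that activate the nuclease RNase L. Oas1a, one of several close mouse Oas1 copies among which reads may be split, was at 0.795, 0.344 and 0.121 CPM in control, against 7.13, 1.32 and 18.9 CPM in knockout. It rose 20.7-fold (log2 fold change 4.37, SE 1.09, adjusted p = 0.0225 by edgeR). Here knockout library 1 held 5.40 times knockout library 2. Oas2 had 1, 0 and 1 counts in control, against 108, 17 and 799 counts in knockout. Its rate was 488 times higher in knockout (exact 95% Poisson interval 135 to 4035, counting error only; adjusted p = 0.0169 by edgeR). Oas3, the family member with the greatest affinity for long double-stranded RNA, was at 6.46, 2.65 and 2.13 CPM in control, against 21.2, 14.3 and 166 CPM in knockout. It rose 17.7-fold (log2 fold change 4.15, SE 1.09, adjusted p = 0.0272 by edgeR). The groups did not overlap for Oas2 or Oas3.

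The OAS-like genes differed from each other. Oasl2 was at 3.84, 1.23 and 1.09 CPM in control, against 8.60, 4.51 and 133 CPM in knockout, and rose 23.4-fold (adjusted p = 0.0489 by edgeR). This call was lost with DESeq2 size factors, with no filter on low counts and with the values as deposited (adjusted p = 0.0502, 0.0553 and 0.055 by edgeR). It was also lost with limma-voom (log2 fold change 3.15, adjusted p = 0.237). Oasl1, known for repressing translation of Irf7 mRNA, was at 8.42, 2.85 and 3.16 CPM in control, against 5.77, 2.45 and 8.94 CPM in knockout. The groups overlapped, control library 1 was nearly as high as knockout library 3, and the log2 fold change was 0.24 (SE 0.604, adjusted p = 0.778 by edgeR). It was -0.24 without knockout library 3 and also below 0 without control library 2 or 3. When knockout library 3 was left out, Oas1a rose 9.55-fold and Oas3 4.68-fold, Oas2 was 93.9 times higher (25.5 to 784) and Oasl2 was 3.15-fold higher and no longer passed (adjusted p = 0.0619 by edgeR). Without control library 1, Oas1a was 36.8-fold, Oas3 27.8-fold and Oasl2 41.5-fold higher, and the ratio of Oas2 was 311 without control library 2 and 762 without knockout library 2. Leaving out any 1 control library ended the calls of Oas1a, Oas2, Oas3 and Oasl2 (adjusted p from 0.0522 to 0.157 by edgeR).

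The double-stranded RNA kinase and deaminase did not pass the test. Eif2ak2 encodes PKR, which halts translation when it binds double-stranded RNA. It was at 25.8, 24.6 and 25.3 CPM in control, against 24.0, 27.0 and 64.4 CPM in knockout, so that knockout library 3 alone stood clear of the other libraries (log2 fold change 0.61, SE 0.380, adjusted p = 0.255 by edgeR). Adar encodes the enzyme that converts adenosine to inosine in double-stranded RNA and so hides cellular RNA from sensors. It was at 51.4, 61.7 and 59.8 CPM in control, against 48.8, 38.2 and 109 CPM in knockout. Knockout libraries 1 and 2 were below every control library and knockout library 3 above them. With all libraries the log2 fold change of Adar was 0.18 (SE 0.381, adjusted p = 0.742 by edgeR), and without knockout library 3 Adar was lower (log2 fold change -0.40, adjusted p = 0.0424 by edgeR).

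Mx genes encode dynamin-like GTPases that trap viral nucleocapsids, and many inbred laboratory mouse strains carry defective copies. The rows of Mx1 and Mx2 were among those with 0 in control library 1, in which all deposited values are multiples of 11, and their values were divided by 11. After division Mx1 had no count in any control library and 3, 0 and 158 counts in knockout libraries 1, 2 and 3. Mx2 had 0, 1 and 0 counts in control, against 8, 4 and 221 in knockout. Nearly all Mx counts thus came from knockout library 3, at 9.67 CPM for Mx1 and 13.5 CPM for Mx2, and neither gene had enough counts to test. Taking 3 counts in the whole control group as its upper limit, Mx1 was at least 56.7-fold higher, and Mx2 246 times higher (exact 95% Poisson interval 43.7 to 9762, counting error only). From knockout libraries 1 and 2 only, the same calculation gave 1.5-fold for Mx1, but its 3 and 0 counts there are too few to set a lower limit on a rise. The ratio for Mx2 was then 18.0 (2.67 to 771). Without control library 1 or 2 the bound for Mx1 was 35.7-fold and 36.1-fold, and without knockout library 2 it was 90.1-fold. Mx2 was 155 times higher without control library 1, at least 52.2-fold higher without control library 2 and 385 times higher without knockout library 2. With the values as deposited Mx1 reached 105 CPM and Mx2 146 CPM in knockout library 3. The bound for Mx1 was then 622-fold, the ratio for Mx2 was 245 (137 to 492), and Mx2 was tested and higher (adjusted p = 0.0369 by edgeR). Deposited values of these rows step by 11 and so are not single counts, which makes that interval too narrow. The 622-fold bound is inflated too, as it still took 3 counts as the control limit.

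The IFITM genes were above control in every knockout library, as were 19 of the 29 other members and 29.7% of all genes tested. Their rise leaned less on knockout library 3 than that of most members. IFITM proteins sit in plasma and endosomal membranes and hinder the fusion of viral envelopes. Ifitm1 was at 0.608, 0.491 and 0.729 CPM in control, against 52.0, 185 and 202 CPM in knockout, a rise of 240-fold (log2 fold change 7.90, SE 0.674, adjusted p = 0.000628 by edgeR). Ifitm2 was at 20.7, 12.4 and 10.9 CPM in control, against 68.0, 110 and 104 CPM in knockout, a rise of 6.41-fold (log2 fold change 2.68, SE 0.314, adjusted p = 0.00164 by edgeR). Ifitm3 was at 23.7, 17.9 and 15.9 CPM in control, against 216, 385 and 690 CPM in knockout (log2 fold change 4.49, SE 0.472, adjusted p = 0.00114 by edgeR). For these genes knockout library 1, not 2, was the lowest of the knockout libraries, unlike in most members, and knockout library 3 held 1.09, 0.942 and 1.79 times the higher of the other knockout libraries. The rises were 195-fold, 6.07-fold and 15.7-fold when knockout library 3 was left out. The 3 genes are similar in sequence, and reads may be split among them. Bst2, which encodes tetherin, a protein that holds budding virions at the cell surface, did not follow them. It was at 51.5, 33.3 and 29.6 CPM in control, against 44.6, 33.2 and 165 CPM in knockout. Knockout libraries 1 and 2 lay within the control range, and Bst2 did not pass (log2 fold change 1.08, SE 0.619, adjusted p = 0.214 by edgeR).

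**Figure D2:**
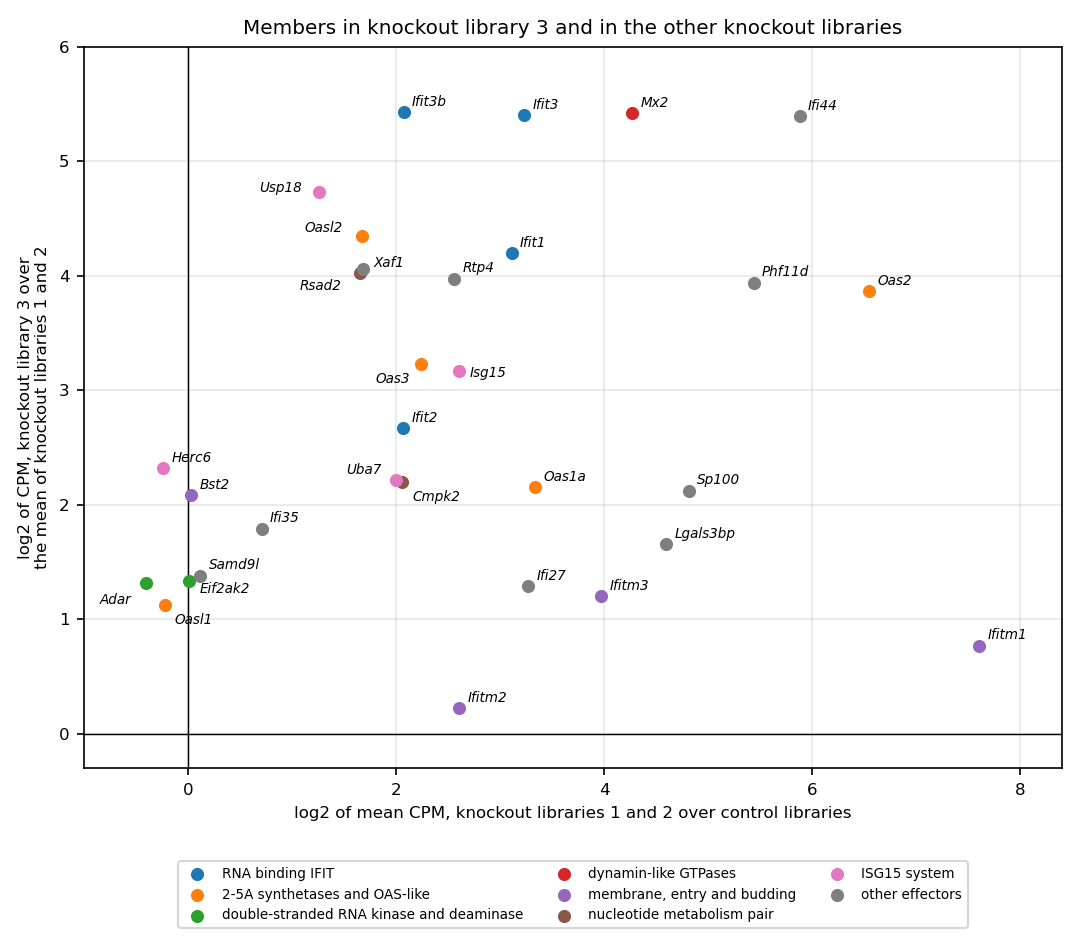
For each gene except Mx1, which had no control count, the horizontal axis gives the log2 ratio of mean CPM in knockout libraries 1 and 2 to that in control, and the vertical axis the log2 ratio of knockout library 3 to the mean of knockout libraries 1 and 2. Ifitm1 (7.60 across, 0.77 up) and Ifitm2 (2.60 across, 0.22 up) lie low, Ifit3 (3.23 across, 5.40 up) and Ifi44 (5.88 across, 5.40 up) lie high, and Adar, Oasl1 and Herc6 lie left of 0.

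Rsad2 and Cmpk2 are neighbouring genes of nucleotide metabolism: viperin, the product of Rsad2, makes a chain-terminating CTP analogue, and CMPK2 supplies nucleoside triphosphates. Cmpk2 was at 1.26, 0.834 and 0.547 CPM in control, against 4.41, 2.94 and 16.9 CPM in knockout, and rose 9.00-fold (log2 fold change 3.17, SE 0.768, adjusted p = 0.0206 by edgeR). Rsad2 was at 1.12, 0.687 and 0.182 CPM in control, against 3.16, 1.03 and 34.1 CPM in knockout. Its knockout library 2 lay just under control library 1, and the gene did not pass (log2 fold change 4.21, SE 1.41, adjusted p = 0.0576 by edgeR). Without knockout library 1 or 2 Rsad2 did pass (adjusted p = 0.0487 and 0.0301 by edgeR). Its fitted fold was 18.6 with all libraries, 3.04 without knockout library 3 (adjusted p = 0.100 by edgeR) and 27.9 without control library 1 (adjusted p = 0.123 by edgeR). Cmpk2 was 4.09-fold higher without knockout library 3 (adjusted p = 0.00515 by edgeR) and did not pass without any 1 control library (adjusted p from 0.0563 to 0.0837 by edgeR).

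In the ISG15 system, ISG15 is attached to proteins by the activating enzyme UBA7 and, in mouse, the ligase HERC6, and USP18 removes it and damps the interferon receptor. Isg15 was at 2.90, 1.08 and 1.03 CPM in control, against 11.5, 8.86 and 91.5 CPM in knockout, a rise of 22.0-fold (log2 fold change 4.46, SE 1.09, adjusted p = 0.0216 by edgeR). Uba7 was at 1.64, 0.638 and 0.729 CPM in control, against 3.38, 4.65 and 18.7 CPM in knockout, a rise of 8.75-fold (log2 fold change 3.13, SE 0.792, adjusted p = 0.0238 by edgeR). Modifier and activating enzyme were thus above control in each knockout library. Herc6 was at 3.70, 3.88 and 3.40 CPM in control, against 3.21, 2.99 and 15.5 CPM in knockout: knockout libraries 1 and 2 lay below every control library, and the gene did not pass (log2 fold change 0.98, SE 0.668, adjusted p = 0.294 by edgeR; -0.24 without knockout library 3). Usp18 was at 0.842, 0.442 and 0.364 CPM in control, against 1.85, 0.784 and 35.1 CPM in knockout (log2 fold change 4.48, SE 1.52, adjusted p = 0.0606 by edgeR). Its knockout library 2 lay under control library 1, and it passed without knockout library 1 or 2 (adjusted p = 0.0427 and 0.032 by edgeR). The fitted fold of Usp18 was 22.2 with all libraries and 2.34 without knockout library 3 (adjusted p = 0.108 by edgeR). Isg15 rose 5.99-fold and Uba7 3.96-fold without knockout library 3, and without control library 1 Isg15 was 34.8-fold higher. The call of Isg15 was lost without any 1 control library and that of Uba7 without control library 2 or 3 (adjusted p from 0.054 to 0.095 by edgeR).

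Of the 9 remaining effectors, 7 rose and 2 did not pass. The secreted glycoprotein gene Lgals3bp was at 5.47, 1.72 and 0.911 CPM in control, against 62.1, 68.7 and 206 CPM in knockout (log2 fold change 5.35, SE 0.833, adjusted p = 0.00423 by edgeR). Ifi27, a mitochondrial membrane protein gene, was at 5.71, 2.50 and 0.972 CPM in control, against 28.9, 30.2 and 72.0 CPM in knockout (log2 fold change 3.82, SE 0.694, adjusted p = 0.00748 by edgeR). Sp100, a nuclear body component that represses viral genomes, was at 0.655, 0.0491 and 0.0607 CPM in control, against 8.50, 5.83 and 31.2 CPM in knockout. It rose 55.4-fold (log2 fold change 5.79, SE 1.09, adjusted p = 0.00844 by edgeR). These 3 genes, with the IFITM genes, kept their calls whichever single library was left out. Lgals3bp rose 23.5-fold and Sp100 26.0-fold without knockout library 3, and without control library 1 Lgals3bp was 83.5-fold, Ifi27 24.6-fold and Sp100 247-fold higher.

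The other 4 that rose owed more of their size to knockout library 3. Phf11d had 3, 1 and 1 counts in control and stood at 4.14, 3.09 and 55.5 CPM in knockout, a rise of 227-fold (adjusted p = 0.0125 by edgeR); it belongs to a cluster of close Phf11 copies among which reads may be split. Ifi44 had 1, 1 and 0 counts in control, against 51, 20 and 1292 counts in knockout, 720 times higher (adjusted p = 0.0252 by edgeR). The exact 95% Poisson interval of 199 to 5950 holds counting error only, not the spread between the knockout libraries. Rtp4, a chaperone of cell-surface receptors that also limits interferon responses, was at 1.22, 0.491 and 0.547 CPM in control, against 5.12, 3.72 and 69.6 CPM in knockout, a rise of 34.0-fold (adjusted p = 0.0277 by edgeR). Xaf1, a pro-apoptotic partner of XIAP, was at 1.31, 0.834 and 0.547 CPM in control, against 3.65, 2.11 and 47.9 CPM in knockout, a rise of 19.5-fold (adjusted p = 0.0435 by edgeR). In all 4 the groups were separate, and knockout library 3 held between 13.1 and 28.5 times the next highest library. On knockout libraries 1 and 2 the values were 39.3-fold for Phf11d, 53.4 times for Ifi44 (14.2 to 449), 5.77-fold for Rtp4 and 3.15-fold for Xaf1, each still passing. Ifi44 was 1128 times higher without knockout library 2. Leaving out any 1 control library ended these 4 calls (adjusted p from 0.0517 to 0.141 by edgeR).

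Ifi35 and Samd9l, the remaining effectors, did not pass. Ifi35 was at 19.3, 17.3 and 14.6 CPM in control, against 29.6, 26.2 and 96.5 CPM in knockout. Its groups did not overlap (log2 fold change 1.57, SE 0.519, adjusted p = 0.056 by edgeR). Ifi35 passed without knockout library 1, 2 or 3 (adjusted p = 0.0406, 0.0369 and 0.00559 by edgeR), and its rise without knockout library 3 was 1.63-fold. Samd9l, a regulator of translation and endosome traffic, was at 16.1, 5.10 and 7.47 CPM in control, against 12.7, 8.03 and 27.1 CPM in knockout. Control library 1 lay above knockout libraries 1 and 2 (log2 fold change 0.73, SE 0.577, adjusted p = 0.358 by edgeR).

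**Figure D3:**
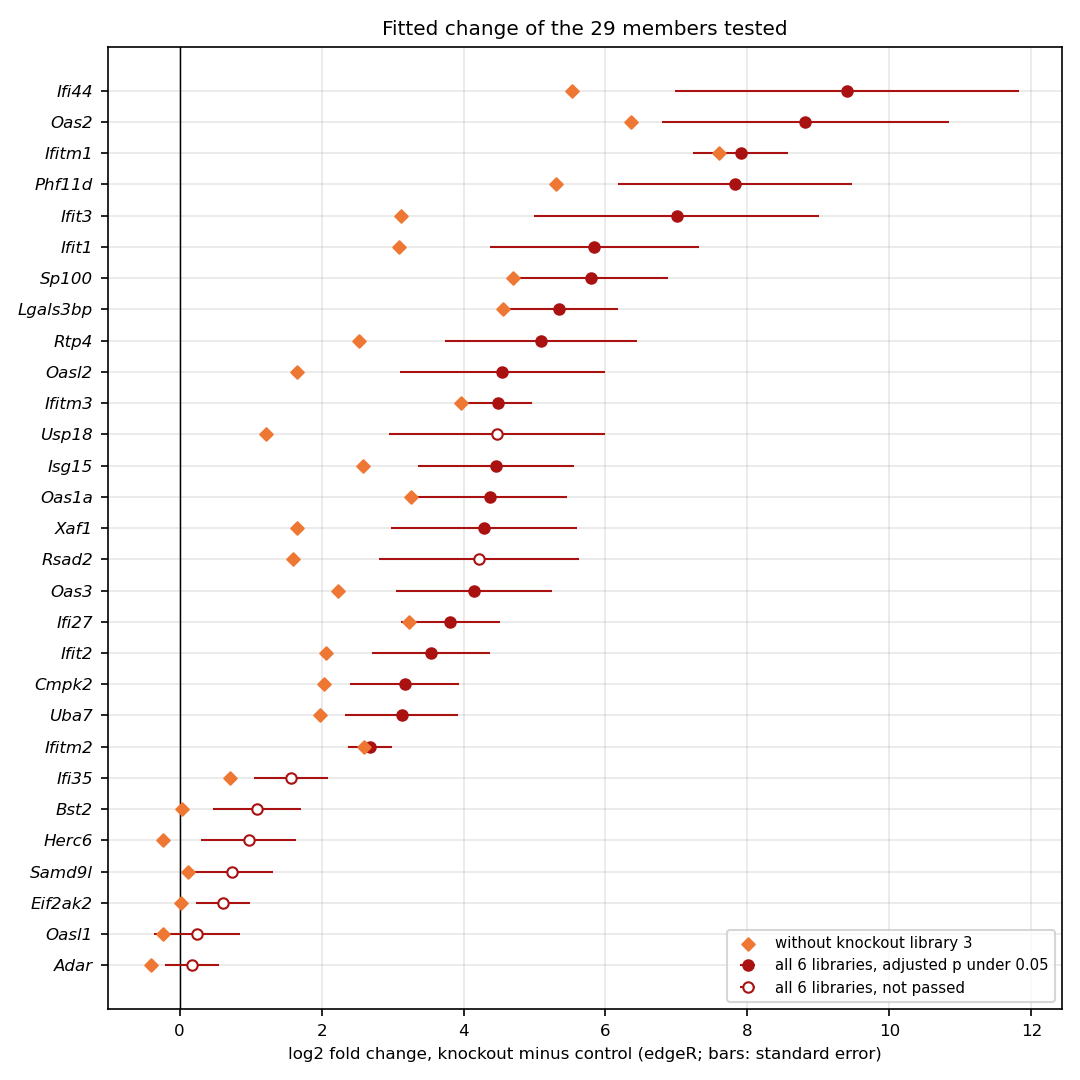
Log2 fold change of knockout over control for the 29 genes tested, with its standard error (circles; filled where adjusted p was under 0.05 by edgeR), and the log2 fold change without knockout library 3 (diamonds). The diamonds of Ifitm1 and Ifitm2 (7.61 and 2.60) lie close to their circles (7.90 and 2.68), whereas that of Ifi44 lies at 5.53 beside 9.40, and those of Adar, Oasl1 and Herc6 lie below 0.

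The interferons themselves were almost absent. Of 12 interferon ligand genes listed, 7 had no count in any library, none had enough counts to test, and the highest level of any was 0.196 CPM. Ifnb1, the gene for interferon beta, had 3 counts in knockout library 3 (33 as deposited, in a row of multiples of 11) and none elsewhere. Among the 24 other genes of interferon receptors and signalling, all of which were tested, 8 rose and 2 fell, where 20.3% of all genes tested rose and 15.4% fell. Ifnar1 rose 1.94-fold, from 42.4, 37.6 and 41.1 CPM in control to 64.4, 82.8 and 87.6 CPM in knockout (adjusted p = 0.00443 by edgeR), whereas Ifnar2 had a log2 fold change of 0.51 (adjusted p = 0.197 by edgeR). Tyk2 rose 2.06-fold (adjusted p = 0.00211 by edgeR) and Irf5 2.86-fold (adjusted p = 0.00818 by edgeR). Ifnlr1, the receptor chain for type III interferons, fell 3.05-fold (adjusted p = 0.00649 by edgeR). For Ifnar1, Tyk2 and Irf5 every knockout library lay above every control library, and for Ifnlr1 every one lay below.

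The transcription factor genes Irf7, Irf9 and Stat2 were highest in knockout library 3, as were most effectors. Irf7, a factor that interferon induces and that amplifies interferon gene expression, was at 1.92, 0.589 and 0.425 CPM in control, against 6.32, 5.97 and 140 CPM in knockout. It rose 50.2-fold (adjusted p = 0.0321 by edgeR), or 6.12-fold without knockout library 3 and 97.0-fold without control library 1. Irf9 was at 7.30, 5.74 and 6.19 CPM in control, against 15.9, 15.0 and 108 CPM in knockout. It rose 7.21-fold (adjusted p = 0.0375 by edgeR), or 2.41-fold without knockout library 3. Both calls were lost without any 1 control library (adjusted p from 0.0774 to 0.118 for Irf7 and from 0.107 to 0.128 for Irf9 by edgeR). Stat2 was at 18.0, 16.8 and 21.5 CPM in control, against 18.0, 28.8 and 153 CPM in knockout (adjusted p = 0.114 by edgeR; 0.0404 without knockout library 1). For Stat2, knockout libraries 1 and 2 lay near the control range and knockout library 3 far above it. Leaving out control library 1, 2 or 3 left 4, 3 and 4 of the 24 signalling genes higher, against 12.1%, 9.29% and 9.78% of all genes tested, and 1 lower each time, against 9.41%, 9.13% and 9%.

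**Figure D4:**
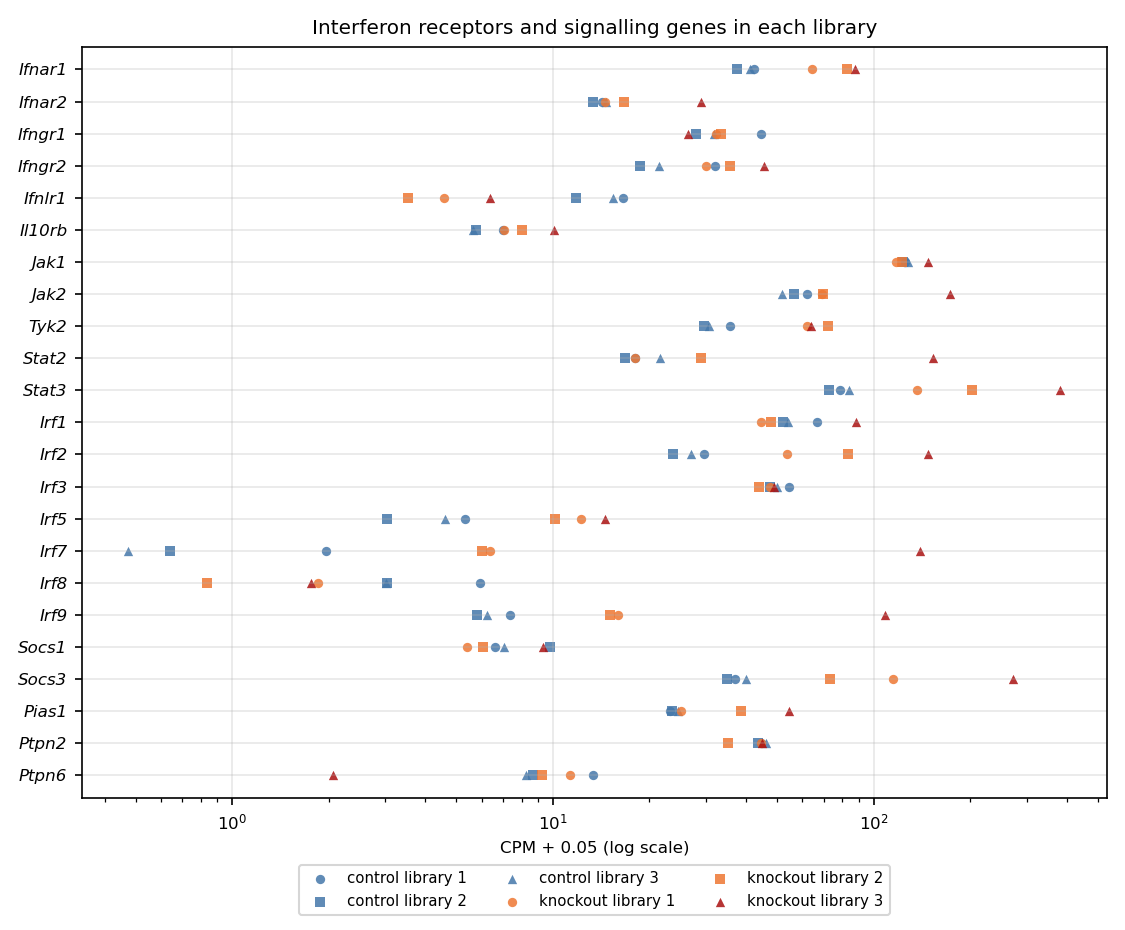
Level of interferon receptor and signalling genes in each library, as CPM + 0.05 on a logarithmic axis, with colours as for the effector genes. Stat2, Irf7 and Irf9 stand at 108 to 153 CPM in knockout library 3 only. Irf7, Irf9, Ifnar1 and Tyk2 are above control in all 3 knockout libraries, whereas Stat2 in knockout library 1 lies within the control range.

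Of 26 RNA and DNA sensing genes, 22 were tested, of which 5 rose, 2 fell and 15 did not pass. The share that rose was near the 20.3% of all genes tested, and the share that fell was under their 15.4%. Ticam1, Ifi204, Traf3 and Ikbke had the smallest p-values, and their log2 fold changes were 1.65, 3.25, -1.14 and -1.23, each with an adjusted p of at most 0.00511 by edgeR; that of Ifi204 was 2.63 without knockout library 3. Of the 3 genes for RIG-I-like receptors, cytosolic RNA helicases, Dhx58 and Ifih1 rose and Ddx58 did not pass; they were picked after their values were seen. Dhx58, which modulates the sensor encoded by Ifih1, was at 0.982, 0.589 and 0.668 CPM in control, against 5.55, 6.76 and 63.6 CPM in knockout (adjusted p = 0.016 by edgeR). Ifih1 was at 10.1, 6.28 and 8.02 CPM in control, against 16.2, 15.2 and 66.4 CPM in knockout (adjusted p = 0.0459 by edgeR). Ddx58, which encodes RIG-I, was at 24.4, 18.1 and 19.7 CPM in control, against 23.5, 16.1 and 108 CPM in knockout (log2 fold change 1.25, adjusted p = 0.208 by edgeR; -0.07 without knockout library 3). The calls of Dhx58 and Ifih1 were lost without any 1 control library (adjusted p from 0.06 to 0.0713 for Dhx58 and from 0.104 to 0.154 for Ifih1 by edgeR), and both were kept without knockout library 3, where the rises were 8.15-fold and 1.93-fold. Over the sensing list, 8 of 22 genes were higher and 5 lower without knockout library 3, against 25.5% and 22.8% of all genes tested. The share that was lower thus lay near that of all genes. Without any 1 control library 2 were higher and 2 lower, again near the shares of all genes. Those shares were 12.1%, 9.29% and 9.78% higher and 9.41%, 9.13% and 9% lower without control library 1, 2 or 3.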

How the data were processed

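RNA was sequenced from 3 control and 3 knockout libraries, grouped by title. The authors deposited whole-number counts per gene symbol. The submitters' processing notes name STAR 2.7.1a, featureCounts and hg38, with no role for each. The symbols are mouse symbols, although the sample labels name human; the annotation used is not given in the sources used here, so overlapping and antisense genes cannot be told apart. In 1704 rows with 0 in control library 1 every value was a multiple of 11; these rows, Mx1, Mx2 and Ifnb1 among them, were divided by 11.

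The count model was edgeR 4.0.16 under R 4.3.3 (filterByExpr, TMM, robust quasi-likelihood test). Standard errors come from the fold change and test statistic. Folds are fitted, except where the control group held 3 counts or fewer. On simulated data the procedure recovered 36% of 100 changes of 2-fold and 95% of 100 changes of 4-fold, with 14 false calls. A gene that did not pass may thus still have changed 2-fold or more. Rsad2 and Usp18 did not pass at fitted folds of 18.6 and 22.2. Whether the recovered shares hold for members with few counts, or with knockout library 3 far above the other knockout libraries, was not tested. Every pair of libraries of a group differed by more than sampling noise. Alternatives used DESeq2 1.42.0, limma-voom (limma 3.58.1), other scaling and filters, a replicate block, the deposited values, and 1 library left out. Named were all members, up to 4 called genes of each other list, and 7 signalling genes whatever their p, of which 1 is not reported here. Outside this rule, 3 RNA helicase genes, the targeted gene and some of the cell type markers were named. Members and lists were chosen with earlier results of these data known. Promoter motifs were not analysed here.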

Additional observations from a re-analysis of the deposited data

How the results depend on the processing

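Of 29 members tested, Oasl1, Adar and Herc6 changed sign in some fits: Oasl1 was at -0.05, -0.01 and -0.24 without control library 2, control library 3 or knockout library 3, and Adar and Herc6 at -0.40 and -0.24 without knockout library 3. With 1 library left out their highest values were 0.92, 0.45 and 1.35. Of the 29, 6 were higher with limma-voom and 13 with the replicate number as a block, against 18.6% and 16.1% of all genes tested, and from 6 to 24 with 1 library left out (from 9.29% to 25.5% of all genes tested); members lower were 0 or 1. The same numbers label both groups, but deviations of same-numbered libraries correlated at -0.045, 0.282 and 0.0428, so the numbers are not taken to pair them; the block also ended the call of Oasl2 (log2 fold change 3.04, adjusted p = 0.137 by edgeR). With 1 library left out, genes changed ranged from 2312 to 6021 and the members' median log2 fold change from 2.23 to 4.80. Signalling genes higher then ranged from 3 to 10 and lower from 1 to 2, and sensing genes higher from 2 to 8 and lower from 2 to 5. Over all genes tested, 9.29% to 25.5% were then higher and 9% to 22.8% lower. Signalling genes lower were 1 with the values as deposited, where 1849 of all 12759 genes tested were. Sensing genes higher were 3 with limma-voom, against 18.6% of all genes tested. None of the 29 changed sign with DESeq2, limma-voom, DESeq2 size factors in edgeR, the block, the deposited values or no filter on low counts. The cause of these changes was not tested. With 3 libraries per group, a spread as wide as that of the knockout libraries limits what can be called.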
